A study of Mus musculus with 9 samples.

Results

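Bone marrow (BM) B cells that carried CD11b after lipopolysaccharide (LPS) were compared over all genes with peritoneal macrophages (PMs) of naive mice. The comparison holds 6 of the 9 RNA-sequencing libraries of the series, 3 in each group, and the libraries were taken by group from the sample labels. The CD11b+ B cells were sorted from the BM of wild-type C57BL/6 mice 48 h after an intraperitoneal injection of LPS at 5 mg/kg. The PMs were sorted as CD11b+F4/80+ cells from the peritoneal cavity of untreated wild-type mice. Before the B cells were sorted, BM cells that bound antibodies to CD3, CD4, CD8, Gr-1, NK1.1 or TER119 were removed. The labels and methods name CD11b alone for the sort of the sequenced B cells, and no further gate is known here. Tissue, cell type and LPS therefore differed together between the groups, and their parts in any difference given here cannot be told apart. The third group of the series, CD11b- B cells sorted from the same LPS-treated BM, is cited beside single values and list sums and entered a fit only in the alternative with all 9 libraries.

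B cells read antigen through a surface immunoglobulin that signals through the CD79a and CD79b chains, and their identity is held by a small set of transcription factors that includes PAX5 and EBF1. PMs are long-lived tissue macrophages that engulf dying cells and microbes, secrete complement and lipid mediators, and depend on GATA6 for their place in the peritoneal cavity. CD11b, the alpha chain of the integrin CR3 encoded by *Itgam*, is a myeloid adhesion and complement receptor that some B cell subsets also carry, and F4/80, encoded by *Adgre1*, is a macrophage surface receptor.

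The libraries held 18014658 to 29208721 reads on genes in PMs and 26174718 to 35251215 in CD11b+ B cells, with a read on 17386 to 17526 and on 23767 to 27321 genes. Expression is given as FPKM, the reads on a gene per kilobase of exon scaled to the total of reads on genes in the library. Differences are given on the log2(FPKM + 1) scale as CD11b+ B cells minus PMs, with the standard error, and were tested with limma, which adjusts p-values over all tested genes (threshold 0.05). Because 1 is added to each value, the change of a gene with few reads is understated. The labels do not say whether the libraries of a group came from separate mice, so the p-values measure the spread between these libraries. PM replicate 1 correlated less with the other PM libraries (r = 0.894 and 0.888 over 12525 genes, against 0.947 between replicates 2 and 3), and CD11b+ replicate 3 less with the other CD11b+ libraries (0.938 and 0.944, against 0.979). In bulk samples, fewer cells of a type and less RNA per cell cannot be told apart.

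Of 22102 tested genes, 6700 (30.3%) differed, with 4760 (21.5%) higher in CD11b+ B cells and 1940 (8.78%) lower. The changes were large in both directions: 1279 of the higher and 861 of the lower genes differed more than 4-fold, and 74 and 77 more than 64-fold. The libraries of the groups did not overlap for 4747 of the higher and 1938 of the lower genes, and over all tested genes they did not overlap for 34.3% upwards and 12.4% downwards. The split depended on the scaling of the libraries. With median-ratio scaling, which sets the median ratio of the libraries over 12939 genes to 1, every FPKM ratio fell by 0.50 on the log2 scale before the pseudocount was added and the median log2 difference went from 0.25 to 0.13, and 2927 genes (13.4%) were then higher and 2564 (11.8%) lower. No gene called in one direction was called in the other after scaling. The count of higher genes was 3152 without CD11b+ replicate 2. Genes with an FPKM of at least 10 numbered 5071 in CD11b+ B cells and 3887 in PMs, and 3056 were shared. Among the shared genes 834 were called higher and 349 lower, and for 1102 the 95% interval of the log2 difference lay within -1 and 1.

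**Figure D1:**
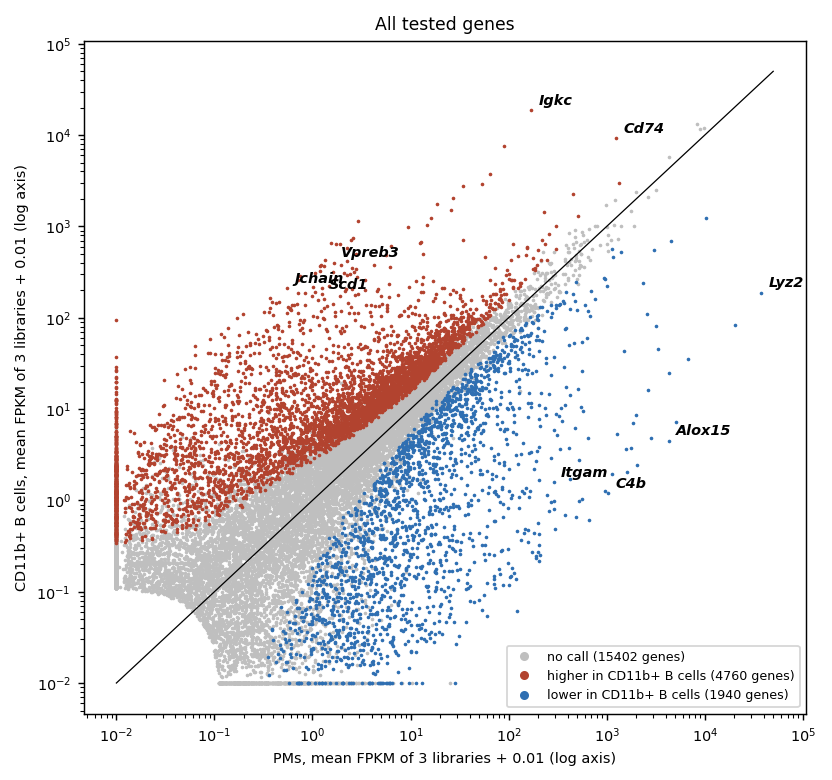
Mean FPKM of the 3 PM libraries (horizontal) against the mean of the 3 CD11b+ B cell libraries (vertical) for all 22102 tested genes, both on log axes after adding 0.01. Each point is 1 gene, red where called higher (4760), blue where called lower (1940) and grey otherwise, and the line marks equal values, with many points far from it on both sides, *Vpreb3* and *Jchain* far above it and *Alox15* and *C4b* far below.

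The 4 markers of the groups lie at the ends of this same comparison. Their values are therefore a description, and neither they nor their p-values check the labels. *Alox15* (ENSMUSG00000018924, chromosome 11 from 70344152 to 70352031 in GRCm38), the lipoxygenase that oxidises arachidonic and linoleic acid in resident macrophages, stood at 5.40, 4.001 and 4.03 FPKM in CD11b+ replicates 1 to 3 and at 3963, 4629 and 4255 in PM replicates 1 to 3, the order used for all values that follow. It was 956-fold lower in CD11b+ B cells, the largest difference downwards on the log2(FPKM + 1) scale among the genes with an FPKM of at least 10 in PMs (log2 difference -9.62 ± 0.19, limma adjusted p = 3.60e-07). *Retnla* (ENSMUSG00000061100, chromosome 16 from 48842551 to 48844461), a resistin-like protein secreted by alternatively activated macrophages, had 8.30, 5.23 and 5.45 against 6247, 7557 and 3808 (-9.61 ± 0.30, adjusted p = 6.75e-07). Upwards, *Vpreb3* (ENSMUSG00000000903, chromosome 10 from 75943057 to 75949657) led on the same scale. It encodes a protein that associates with newly made immunoglobulin chains and had 295, 335 and 574 in the CD11b+ libraries and 2.20, 0.917 and 1.79 in the PM libraries (7.23 ± 0.31, adjusted p = 2.45e-06). The rankings here and below left out immunoglobulin and T cell receptor variable, joining and diversity segments and symbols that start with Gm or end in Rik. *Tnfrsf13c* (ENSMUSG00000068105, chromosome 15 from 82221743 to 82224369), the receptor for the survival factor BAFF, had 446, 438 and 372 against 3.31, 1.62 and 1.84 (7.04 ± 0.23, adjusted p = 8.00e-07). For each of these 4 genes the groups were far apart and the exact two-sided permutation test gave p = 0.1, the smallest value possible with 3 libraries against 3.

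Genes of surface proteins that define B cells or PMs differed in the same way. *Ptprc*, of which B220 is a splice form, had an FPKM of 78.0, 60.8 and 65.8 in CD11b+ B cells and 25.6, 11.7 and 15.9 in PMs. *Itgam* had 1.92, 1.31 and 1.51 in the cells sorted for CD11b, with a mean of 0.507 in CD11b- B cells, and 358, 254 and 251.4 in PMs. Every CD11b+ library was thus far below every PM library, at a mean of 0.548% of the PM mean (log2 difference -6.79 ± 0.21, limma adjusted p = 6.75e-07). *Itgb2*, the beta chain that pairs with CD11b and with the alpha chain of the lymphocyte integrin LFA-1, differed less, with 54.9, 51.9 and 54.2 against 495, 609 and 566 (-3.35 ± 0.18, adjusted p = 7.57e-06). *Adgre1* had 3.42, 2.702 and 2.698 against 232, 240.4 and 345. Over 9 B cell markers the PM mean was 0.407 to 1.70% of the CD11b+ mean (median 1.13%), and PM replicate 1 was the highest PM library for 7 of them. Over 10 macrophage markers the CD11b+ mean was 0.105 to 3.04% of the PM mean (median 0.525%). Low levels of the other group's markers were therefore measured in both groups, and their part in the differences was not tested.

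**Figure D2:**
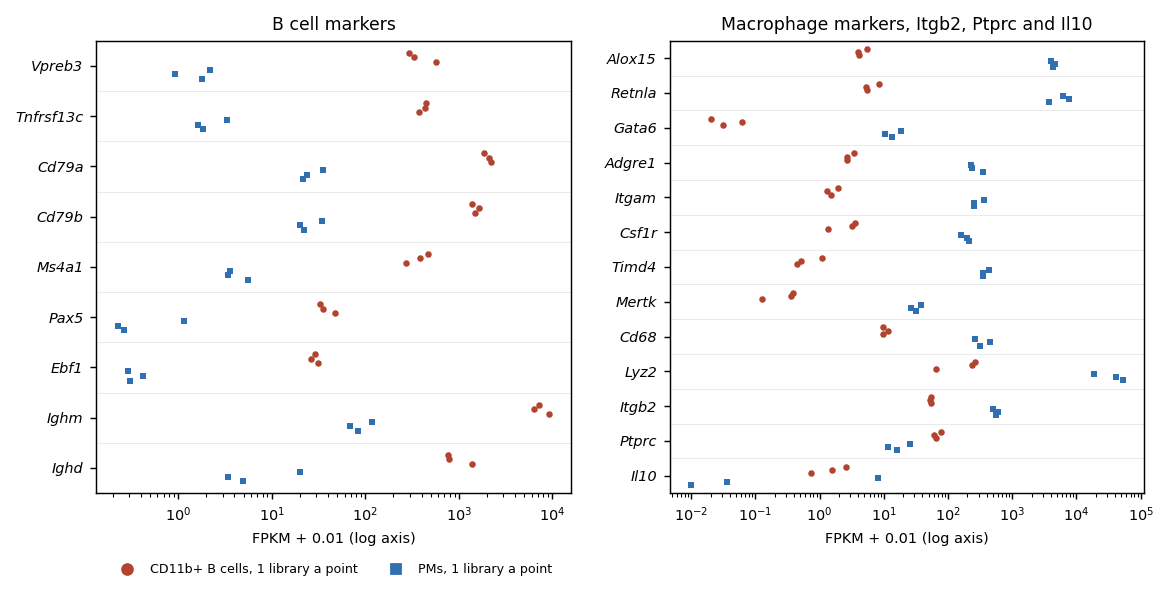
FPKM plus 0.01 (log axis) of 9 B cell markers (left) and of 10 macrophage markers with *Itgb2*, *Ptprc* and *Il10* (right), with CD11b+ B cell libraries as circles, PM libraries as squares, and replicates 1 to 3 from top to bottom within a row. The groups do not overlap for any of these markers, while for *Il10* PM replicate 1 lies above the CD11b+ libraries and the other PM libraries lie below them.

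The promoters of 4 of these genes are shown, and the table of promoters holds them. *Vpreb3* and *Tnfrsf13c* had the largest differences upwards, *Cd79a* encodes a signalling chain of the B cell receptor, and *Retnla* was second in the other direction. Each run is 300 bases from RefSeq on GRCm38.p6, from 250 bases before to 50 bases after an annotated start, 5′ to 3′ on the strand of the gene. Capitals mark matches on either strand to 6 motifs, the octamer ATGCAAAT bound by OCT factors, the E-box CAGGTG bound by E proteins such as TCF3, CCCNNGGG bound by EBF1, GAGGAAGT bound by PU.1, TTGCNNAA bound by C/EBP factors and AGATAA bound by GATA factors. The intervals are chr10:75948050-75948349 (+) for *Vpreb3*, chr15:82224331-82224630 (-) for *Tnfrsf13c*, chr7:24897247-24897546 (+) for *Cd79a* and chr16:48842359-48842658 (+) for *Retnla*.
Vpreb3: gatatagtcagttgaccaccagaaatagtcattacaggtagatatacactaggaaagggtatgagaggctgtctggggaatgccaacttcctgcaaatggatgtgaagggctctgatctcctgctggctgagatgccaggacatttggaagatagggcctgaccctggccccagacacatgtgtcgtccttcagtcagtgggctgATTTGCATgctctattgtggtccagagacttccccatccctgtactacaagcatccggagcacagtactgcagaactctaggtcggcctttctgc
Tnfrsf13c: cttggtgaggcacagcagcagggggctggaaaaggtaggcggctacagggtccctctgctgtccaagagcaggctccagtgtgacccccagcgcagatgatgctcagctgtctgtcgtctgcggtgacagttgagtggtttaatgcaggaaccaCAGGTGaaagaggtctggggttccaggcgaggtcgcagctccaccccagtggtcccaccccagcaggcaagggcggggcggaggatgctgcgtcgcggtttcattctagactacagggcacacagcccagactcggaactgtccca
Cd79a: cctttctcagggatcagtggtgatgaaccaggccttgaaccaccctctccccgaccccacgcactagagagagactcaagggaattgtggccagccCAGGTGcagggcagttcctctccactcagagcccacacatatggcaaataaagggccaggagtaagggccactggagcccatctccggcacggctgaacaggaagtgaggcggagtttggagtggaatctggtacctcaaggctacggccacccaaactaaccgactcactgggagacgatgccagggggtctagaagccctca
Retnla: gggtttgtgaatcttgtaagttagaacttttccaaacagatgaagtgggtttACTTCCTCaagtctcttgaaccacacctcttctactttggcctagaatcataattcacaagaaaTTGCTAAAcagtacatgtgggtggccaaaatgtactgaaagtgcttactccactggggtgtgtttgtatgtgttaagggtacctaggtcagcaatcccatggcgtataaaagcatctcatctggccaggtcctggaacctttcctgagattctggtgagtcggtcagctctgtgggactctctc

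The *Vpreb3* promoter shown held the octamer, as ATTTGCAT from base -45 relative to its annotated start. This window lies wholly inside the interval printed above for *Vpreb3*, so that start is not the first base of the interval. The *Tnfrsf13c* promoter held the E-box from base -96 and the *Cd79a* promoter held it from base -154. The *Retnla* promoter held the PU.1 letters from base -198 and the C/EBP letters from base -134, and none of these matches overlapped another. Promoters were on hand for 708 of the 1275 gene symbols called higher by more than 4-fold and for 628 of the 860 called lower. The octamer was in 2.98% of the 906 promoters of the higher genes, in 1.13% of the 795 of the lower genes and in 1.74% of all 32851 promoters. The E-box was in 22.7%, 17.7% and 20.2%, the PU.1 letters in 5.19%, 4.03% and 3.20%, and the C/EBP letters in 8.94%, 12.8% and 10.8%. For the EBF1 letters the shares were 18.5%, 19.5% and 13.7%, and for the GATA letters 7.40%, 7.04% and 11.2%. Over the 14953 promoters of the tested genes the shares were 17.4% for the EBF1 and 7.28% for the GATA letters, 1.42% for the octamer, 18.6% for the E-box, 3.36% for the PU.1 and 9.12% for the C/EBP letters. These shares are a description of letters in a window, with no test.

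The B cell receptor and its signalling chain were higher almost throughout. Of 22 genes of the receptor, co-receptors and signalling, 20 were called higher, beside 21.5% over all tested genes. Their median log2 difference was 4.01, beside 0.25 over all tested genes. Of the immunoglobulin chains, *Ighm* had an FPKM of 7108, 6409 and 9278 against 118, 68.0 and 84.6, and *Ighd*, the IgD heavy chain of mature B cells, 772, 781 and 1399 against 19.9, 3.42 and 4.90 (6.86 ± 0.55, limma adjusted p = 6.43e-05). *Igkc*, the kappa constant region, was the most abundant gene of the CD11b+ libraries at 14717, 13629 and 27881, against 228, 152 and 133 in PMs. The 3 lambda constant genes *Iglc1*, *Iglc2* and *Iglc3* were 96.5-fold, 59.3-fold and 55.4-fold higher, but they are near copies of each other and the counting could split their reads. *Cd79a* had 1848, 2097 and 2207 against 35.4, 23.9 and 21.6 and *Cd79b* 1374, 1646 and 1502 against 34.8, 19.9 and 22.0. Among the co-receptors, *Cd72* (6.58) and *Cd22* (6.02), both inhibitory, had larger log2 differences than *Cr2* (4.79), the receptor for complement fragment C3d. The kinases that antigen receptors and Fc receptors share differed less. *Syk* had 104, 116 and 114 against 43.4, 23.1 and 31.3 (log2 difference 1.79) and *Btk* 91.1, 80.9 and 74.4 against 36.8, 33.3 and 29.6 (1.28), while the adaptor *Blnk* differed by 3.67. Neither *Lyn*, a kinase of both lineages (118, 111 and 102 against 76.3, 86.4 and 84.3, adjusted p = 0.102), nor *Cd81*, a tetraspanin (94.6, 93.7 and 68.9 against 91.2, 99.4 and 119, adjusted p = 0.356), passed the test, and after median-ratio scaling *Cd81* was called lower and *Pik3cd* lost its call.

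All 16 tested transcription factors of the B lineage were called higher, beside 21.5% over all tested genes. Their median log2 difference was 2.67, and all 16 were also called with median-ratio scaling. *Spib*, an ETS factor, was the most abundant of them with 484, 532 and 438 against 8.09, 6.36 and 2.42 (log2 difference 6.31 ± 0.35, limma adjusted p = 8.21e-06). *Pax5* had 32.5, 34.9 and 47.0 in the CD11b+ libraries and 1.14, 0.217 and 0.252 in the PM libraries, and *Ebf1* 29.0, 26.2 and 31.5 and 0.279, 0.411 and 0.295. No CD11b+ library came near the PM range for either gene. *Pou2af1*, the B cell coactivator of OCT factors, differed by 5.62, whereas *Pou2f2* (1.63), *Ikzf1* (1.58) and *Irf4* (1.68), which macrophages also express, differed least together with *Lef1* (1.63).

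Receptors for survival factors and help followed the same direction, with 11 of 14 called higher (median 2.59), beside 21.5% over all tested genes. *Ms4a1*, the gene of CD20, had 465, 387 and 272 against 3.62, 3.41 and 5.57, *Fcer2a*, the IgE receptor CD23 of mature B cells, 174, 204 and 177 against 1.31, 0.421 and 0.769, and *Tnfrsf13b*, the gene of the BAFF and APRIL receptor TACI, 226, 205 and 144 against 11.9, 14.0 and 12.6. *Cd40* was also read in PMs and differed by 1.56, with 68.8, 70.8 and 75.7 against 22.8, 25.1 and 23.2. The costimulatory genes did not pass: *Cd86* had 16.4, 15.3 and 13.2 against 16.6, 17.1 and 22.4 and *Cd80* 4.93, 3.13 and 0.682 against 13.7, 3.63 and 4.403. *Tnfrsf17*, the BCMA receptor of plasma cells, had 1.84, 0.328 and 5.99 in the CD11b+ libraries (adjusted p = 0.0755 by limma). After median-ratio scaling *Cd38* lost its call and *Cd86* was called lower.

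**Figure D3:**
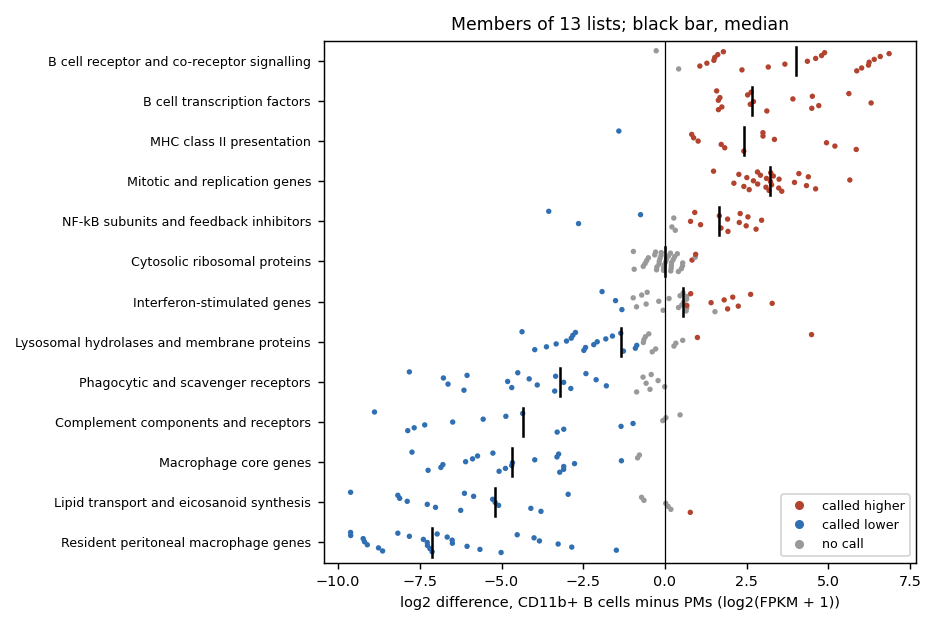
Log2 difference (CD11b+ B cells minus PMs, log2(FPKM + 1)) of every tested member of 13 gene lists, 1 point a gene, red where called higher, blue where called lower and grey where not called, with a black bar at the median of each list. The medians run from 4.01 for B cell receptor genes to -7.12 for resident PM genes, and ribosomal protein genes centre on 0.00, or on -0.50 with median-ratio scaling.

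MHC class II genes were read in both groups, and 12 of 13 were called higher in CD11b+ B cells (median 2.41), beside 21.5% over all tested genes. With median-ratio scaling the count fell to 8, beside 13.4% over all tested genes. *Cd74*, the invariant chain, had 9378, 10070.2 and 8479.6 against 676, 1652 and 1410.4 (log2 difference 2.996 ± 0.45, limma adjusted p = 0.00184), and *H2-Ab1* 2162, 2306 and 2324 against 258, 599 and 495. The differences were larger for the peptide-loading regulators of B cells. *H2-Oa* had 99.7, 108 and 145 against 2.56, 0.341 and 0.740 (log2 difference 5.85), *H2-DMb2* 483, 501 and 507 against 8.07, 18.5 and 13.1 (5.20) and *H2-Ob* 156, 176 and 192 against 7.22, 2.60 and 5.28 (4.94). *Ciita*, the class II transactivator, had 46.6, 41.2 and 42.2 against 5.41, 4.62 and 3.72 (2.998). *Ctss*, the protease that trims the invariant chain, went the other way with 518, 493 and 548 against 1168, 1526 and 1487 (-1.41 ± 0.25, adjusted p = 0.00408). Of 15 class I genes 7 were called higher, beside 21.5% over all tested genes, among them the peptide transporter *Tap1* (83.3, 93.1 and 87.2 against 13.2, 15.6 and 8.53) and *H2-M3* (1.96). *B2m*, the common light chain, was abundant in both, with 2369, 1921 and 2870.5 and 1996, 2303 and 1692. Genes of the H2 family are near copies of each other, so reads may have been split between them.

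Precursor genes differed between the CD11b+ libraries. Of 13 tested precursor and recombination genes, *Vpreb3* and *Myb* (4.51, 4.76 and 10.9 against 0.137, 0.153 and 0.128) were called higher, and *Cd93* (4.16, 4.22 and 8.58 against 50.3, 29.7 and 34.1) and *Bst1* (0.924, 1.35 and 0.727 against 33.6, 49.0 and 40.9), surface proteins that PMs also carry, were called lower by limma. Over all tested genes 21.5% were called higher and 8.78% lower, and with 13 genes no difference of the list from these shares was read. With edgeR 5 were called higher, *Igll1*, *Il7r* and *Sox4* among them. CD11b+ replicate 3 was the highest CD11b+ library for 12 of the 13 genes. *Igll1*, a surrogate light chain, had 0.472, 1.39 and 12.7 in the CD11b+ libraries, *Il7r*, the receptor for the pre-B cell factor IL-7, 0.694, 0.574 and 11.01, and *Rag1*, a recombinase, 0.0206, 0.0694 and 2.96, while the PM libraries had at most 0.272 for these 3 genes. Replicate 3 was thus far above the other CD11b+ libraries, and none of the 3 genes passed limma's test (adjusted p = 0.105, 0.152 and 0.320).

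Among 14 plasma cell genes 7 were called higher, beside 21.5% over all tested genes. *Jchain*, which joins secreted IgM and IgA, had 101, 83.9 and 449 against 0.662, 0.326 and 0.650 (log2 difference 6.68 ± 0.57, limma adjusted p = 9.03e-05), again with replicate 3 highest. *Mzb1*, a chaperone of immunoglobulin secretion, had 59.9, 49.3 and 51.2 against 0.0457, 0.535 and 0.0816 (5.50) and *Derl3* 22.98, 17.8 and 30.6 against 0.195, 0.876 and 0.845 (3.92). *Prdm1*, which encodes BLIMP-1, was low, at 2.21, 1.41 and 1.51, though above the 0.0199, 0.153 and 0.258 of PMs (adjusted p = 0.00813). *Xbp1*, the secretory transcription factor, had 95.7, 92.2 and 103 and 83.1, 129 and 145 and was not called.

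All 26 genes of mitosis and DNA replication were called higher, beside 21.5% over all tested genes. Their median log2 difference was 3.21, and all 26 were called with median-ratio scaling. CD11b+ replicate 3 was the lowest CD11b+ library for every one of the 26. *Rrm2*, a ribonucleotide reductase subunit, had 127, 117 and 36.8 against 1.46, 0.148 and 0.590 (log2 difference 5.65 ± 0.50, limma adjusted p = 0.000106), *Top2a* 49.7, 41.3 and 18.0 against 0.807, 0.855 and 0.335, and *Mki67* 33.4, 37.9 and 17.6 against 4.17, 1.27 and 1.16. Even the lowest CD11b+ library lay above every PM library for these genes. *Pcna*, the replication clamp, was the member with the highest PM level and the smallest difference, with 93.8, 97.8 and 65.1 against 26.9, 33.6 and 28.2 (1.48).

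**Figure D4:**
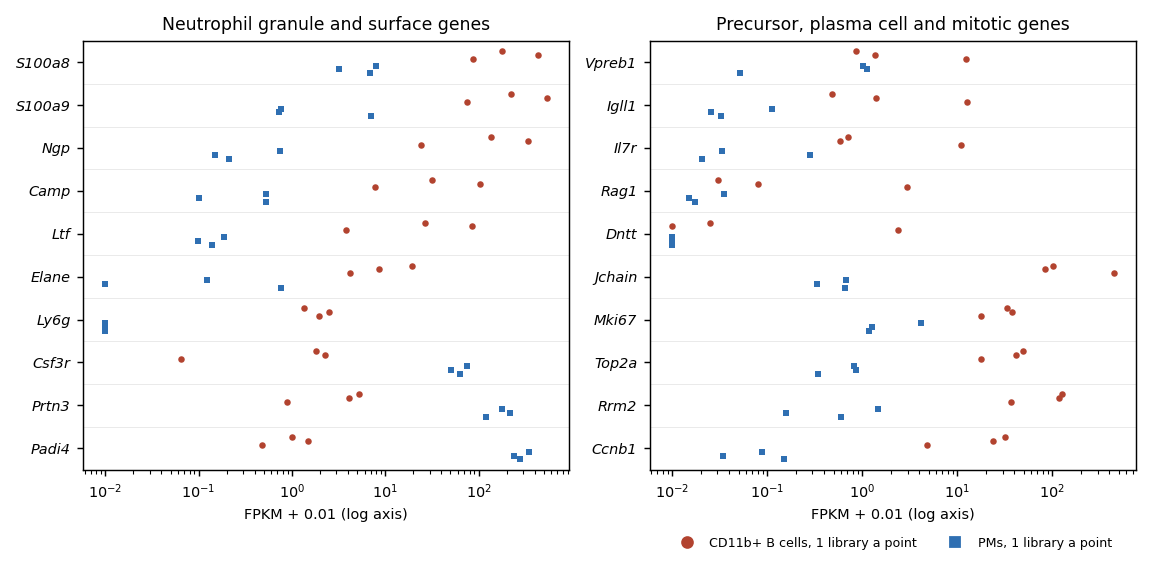
FPKM plus 0.01 (log axis) of 10 neutrophil genes (left) and of 10 precursor, plasma cell and mitotic genes (right) in each library, CD11b+ B cells as circles and PMs as squares, with replicates 1 to 3 from top to bottom within a row. CD11b+ replicate 2 is highest for *S100a8*, *S100a9*, *Ngp*, *Camp* and *Ltf*, and replicate 3 is highest for *Vpreb1*, *Igll1*, *Il7r*, *Rag1*, *Dntt* and *Jchain* and lowest for the 4 mitotic genes.

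The genes of resident PMs stood at a small share of their PM level in CD11b+ B cells. All 27 genes of the resident list were called lower, beside 8.78% over all tested genes. Their median log2 difference was -7.12, and their median level in CD11b+ B cells was 0.161% of the PM mean. The calls were the same 27 with median-ratio scaling and with edgeR. *Gata6*, the factor that specifies these macrophages, had 0.0105, 0.0528 and 0.0218 against 18.5, 10.5 and 13.2 (log2 difference -3.84 ± 0.30, limma adjusted p = 5.69e-05). *Timd4*, a receptor for phosphatidylserine on dying cells, had 1.097, 0.510 and 0.431 against 431, 346 and 348, and *Vsig4*, a complement receptor, 0.252, 0.180 and 0.822 against 212, 194 and 201. Secreted products were prominent: *Saa3*, an acute phase protein, had 10.7, 5.94 and 5.00 against 8254, 3608 and 3567, *Prg4*, a lubricating proteoglycan, 2.83, 2.17 and 2.26 against 2373, 2088 and 1604, and *Cxcl13*, the chemokine that attracts B cells, 3.05, 1.06 and 1.998 against 1850.3, 1339.8 and 1690.1. *Fn1*, fibronectin, had 1.92, 0.863 and 0.964 against 768, 1019 and 1119. *Prg4* shares exon sequence with *Tpr* on the other strand, which had a mean FPKM of 25.8 and 22.7 in the groups. *Icam2*, an adhesion molecule also carried by lymphocytes, was the exception in level, with 51.3, 67.2 and 63.3 against 382, 883 and 605 and 9.72% of the PM mean. For *Alox15* and *Retnla* the mean of CD11b- B cells, 3.70 and 5.07, was close to that of CD11b+ B cells, and this was not tested here.

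Genes common to macrophages of most tissues were lower too. Of 22 such genes 20 were called lower (median -4.68), beside 8.78% over all tested genes, and the list stood at a median of 2.72% of the PM mean. *Lyz2*, lysozyme, was the most abundant PM gene with 18657, 41511 and 53006, against 261, 240.3 and 65.4 in CD11b+ B cells, where replicate 3 was lowest. *Csf1r*, the receptor for the macrophage growth factor CSF1, had 3.56, 3.19 and 1.36 against 160.3, 198 and 210.0, with a mean of 0.176 in CD11b- B cells. *Tyrobp* and *Fcer1g*, signalling adaptors of many activating receptors, were the genes of this list with the highest CD11b+ levels after *Lyz2*, with 74.1, 94.1 and 76.3 against 2570.3, 3964 and 3071 and 40.6, 53.9 and 35.5 against 1293, 1925 and 1280.5, and *Fcer1g* had a mean of 1.71 in CD11b- B cells. *Cd14*, the LPS co-receptor, had 1.77, 1.70 and 1.61 against 268, 513 and 493 (log2 difference -7.25 ± 0.27, limma adjusted p = 1.31e-06). *Cx3cr1* and *Tlr4* were not called by limma and were called lower by edgeR. Reads of *Lyz2* and its copy *Lyz1* (0.674, 0.544 and 0.562 against 434, 682 and 861) may have been split between them.

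Of 23 myeloid transcription factors 15 were called lower and 4 higher, beside 8.78% and 21.5% over all tested genes. With median-ratio scaling the counts were 16 and 4, beside 11.8% and 13.4%. *Cebpb*, a factor of myeloid cells whose exons overlap those of *Tmem189* on the other strand (means of 17.5 and 34.9 FPKM), had 0.0679, 0.102 and 0.264 against 62.6, 28.8 and 20.8 (log2 difference -4.92 ± 0.39, limma adjusted p = 6.36e-05), and *Cebpa*, another, 0.0517, 0.261 and 0.161 against 19.6, 18.6 and 15.1. *Spi1*, the gene of PU.1, which acts in both lineages, differed far less, with 38.4, 42.1 and 32.7 against 69.6, 132 and 88.8 (-1.29, adjusted p = 0.00673). The 4 higher genes were *Egr1*, an immediate early factor (15.9, 18.7 and 14.9 against 1.36, 2.02 and 2.54), *Irf8*, which acts in B cells as well as in myeloid cells (96.5, 107 and 99.0 against 19.96, 16.4 and 16.2), *Tfeb*, a regulator of lysosomal genes (17.8, 24.0 and 14.8 against 5.00, 5.91 and 5.61), and *Gfi1*. *Gfi1*, a transcriptional repressor that acts in lymphoid and granulocyte development, had 2.09, 3.27 and 1.53 against 0.383, 0.0215 and 0, and edgeR did not call it.

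Most listed receptors for uptake and most listed complement genes were called lower. Of 24 phagocytic and scavenger receptors 17 were called lower (median -3.22), beside 8.78% over all tested genes, and 7 were not called. Among the lower genes were *Msr1* (-6.64), *Marco* (-6.15) and the lipoprotein receptor *Lrp1* (-6.06). *Cd36*, a fatty acid translocase, was the called member with the highest level relative to PMs, with 43.2, 40.7 and 11.4 against 80.6, 88.9 and 128, and its call was lost without PM replicate 2 or 3. Of 15 complement genes 12 were called lower, against the same share, and 3 were not called. *C1qb* was the highest of the 3 chains of C1q in both groups. It had 27.1, 22.9 and 24.1 against 2819, 5191 and 5012, *C1qa* 7.14, 9.66 and 8.92 against 1574, 2479 and 1870.1, and *C1qc* 7.46, 7.93 and 5.60 against 1639.9, 1986 and 1955. *C4b* had 1.501, 1.14 and 0.917 against 1043, 968 and 1074 (-8.89 ± 0.18, limma adjusted p = 3.60e-07). *Cfp*, properdin, the positive regulator of the alternative pathway, kept 284, 274 and 170.4 in CD11b+ B cells against 2232, 2518 and 2278 in PMs.

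Of 21 genes of lipid handling and eicosanoid synthesis 15 were called lower and 1 higher (median -5.20), beside 8.78% and 21.5% over all tested genes. *Apoe*, the second most abundant PM gene, had 71.9, 78.3 and 99.6 against 14169, 25669.8 and 21113. Enzymes of several branches were called lower. Besides *Alox15*, these were *Ltc4s*, the leukotriene C4 synthase (0.806, 0.754 and 1.54 against 580.0, 640.1 and 459.7), *Alox5ap*, which presents arachidonic acid to 5-lipoxygenase (6.98, 8.50 and 3.06 against 407, 489.7 and 532), *Ptgs1*, cyclooxygenase-1 (0.561, 0.856 and 0.234 against 199, 198 and 195), and *Ptgis*, prostacyclin synthase (0.279, 0.179 and 0.210 against 139.9, 229 and 206). *Hpgds*, a prostaglandin D synthase, was the member called higher, at under 1 FPKM in every library. Of 18 coagulation, fibrinolysis and matrix genes 13 were called lower, beside 8.78% over all tested genes. Among them were *Thbs1*, thrombospondin-1 (-7.39), *F10*, coagulation factor X (-6.97), and *F5*, factor V (-6.51). Of 16 iron and haem genes 9 were called lower, beside 8.78% over all tested genes, and 6 were not called. The lower genes were led by transferrin, *Trf* (3.68, 4.15 and 3.09 against 988, 1574 and 2172), and *Slc11a1*, a metal transporter of the phagosome (1.49, 1.81 and 0.268 against 139.8, 133 and 158). The transferrin receptor *Tfrc* went the other way, with 11.5, 10.6 and 11.9 against 1.64, 1.4004 and 1.27 (2.35 ± 0.23, limma adjusted p = 0.000210).

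Of 29 lysosomal genes 18 were called lower and 2 higher (median -1.35), beside 8.78% and 21.5% over all tested genes. Most were read at substantial levels in both groups. *Ctsd*, cathepsin D, had 28.4, 27.2 and 22.1 against 441, 573 and 669 (log2 difference -4.37 ± 0.22, limma adjusted p = 4.99e-06), *Hexa* 56.3, 49.3 and 43.7 against 332, 401 and 506, and the membrane protein *Lamp1* 26.0, 37.6 and 33.4 against 203, 227 and 299. *Acp5*, tartrate-resistant acid phosphatase, was higher, with 110.3, 111 and 95.1 against 2.93, 2.75 and 6.27 (4.48, adjusted p = 1.59e-05). The subunits of the phagocyte NADPH oxidase, which makes superoxide, were divided. The membrane subunits *Cybb* (87.7, 80.4 and 63.4 against 415, 304 and 437) and *Cyba* (474, 567 and 638 against 904, 1403 and 1083) were lower, while the cytosolic *Ncf4* (202, 215 and 175 against 86.5, 83.3 and 75.4), the GTPase *Rac2* (575, 614 and 459 against 139.7, 253 and 208) and the proton channel *Hvcn1* (80.4, 80.3 and 63.6 against 5.50, 5.29 and 4.42) were higher. *Rac2* lost its call with median-ratio scaling, and *Cyba* without CD11b+ replicate 1 or 2 or without PM replicate 2 or 3.

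Genes for sensing LPS and other microbial products were called in both directions. Of 21 Toll-like receptor and adaptor genes 3 were called higher and 7 lower, beside 21.5% and 8.78% over all tested genes, and 2 and 12 were called with median-ratio scaling, beside 13.4% and 11.8%. The higher count was 1 without PM replicate 2 or 3, and the lower count 4 without CD11b+ replicate 1 or 2. *Tlr1*, a partner of TLR2 for lipopeptides, was higher, with 81.8, 64.8 and 65.6 against 14.98, 2.31 and 2.68 (log2 difference 3.62 ± 0.55, limma adjusted p = 0.00198), and *Tlr13*, a receptor for bacterial ribosomal RNA, lower, with 0.854, 0.240 and 0.0264 against 42.3, 30.7 and 44.4. *Ly96*, the MD-2 partner of TLR4, had 19.0, 12.4 and 16.3 against 104, 109 and 87.8 (-2.60). *Tlr4* itself had 3.76, 2.84 and 1.43 against 4.02, 5.12 and 7.29, which missed the threshold (adjusted p = 0.108) but was called lower with median-ratio scaling and with edgeR.

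The NF-kB list was mostly higher, with 13 of 19 called higher and 3 lower (median 1.66), beside 21.5% and 8.78% over all tested genes. The noncanonical subunit *Relb* (33.9, 36.3 and 34.0 against 2.17, 4.37 and 4.73), *Traf1*, an adaptor of TNF receptors (9.38, 9.05 and 8.04 against 0.113, 0.761 and 0.466), the inhibitor *Nfkbie* (66.5, 71.8 and 47.7 against 7.80, 10.8 and 10.8) and *Tnfaip3*, the feedback inhibitor A20 (13.5, 14.0 and 9.03 against 2.97, 0.185 and 1.64), led. The other noncanonical subunit, *Nfkb2*, had 70.1, 90.4 and 67.2 against 14.97, 15.6 and 13.1, while *Rela* was not called (47.6, 57.3 and 47.6 against 42.6, 35.9 and 48.1). *Dusp1*, a phosphatase of MAP kinases (5.25, 6.69 and 6.10 against 95.3, 66.2 and 84.96), and *Socs3*, an inhibitor of IL-6 family receptors (6.08, 4.02 and 3.86 against 23.7, 40.2 and 40.4), were the lower genes with the largest differences. Of 30 interferon-stimulated genes 9 were called higher and 3 lower, beside 21.5% and 8.78% over all tested genes, and with median-ratio scaling the counts were 7 and 6. *Oasl1* had 16.1, 15.5 and 10.6 against 0.915, 0.420 and 0.304 (log2 difference 3.28) and *Oas2* 10.8, 9.97 and 6.27 against 79.8, 28.5 and 20.7 (-1.93), so members of 1 family stood on both sides, but the *Oas2* call was lost without CD11b+ replicate 2 or 3.

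*Il10*, the anti-inflammatory cytokine, stood at 2.57, 1.57 and 0.715 FPKM in CD11b+ B cells and at 8.01, 0.0261 and 0 in PMs. PM replicate 1 was the highest of the 6 libraries and the other PM libraries were the lowest, so the groups overlapped and no difference was called (log2 difference 0.26 ± 0.82, 95% interval -1.64 to 2.16, limma adjusted p = 0.818). The mean of CD11b- B cells was 0.183. Without PM replicate 1 the log2 difference was 1.31 (limma adjusted p = 0.0296), and with edgeR on all 6 libraries it was -1.07 (adjusted p = 0.683). With limma it was -0.26 without PM replicate 2 and -0.28 without PM replicate 3. The sign therefore depended on the tool and on the library left out. Of 24 cytokine and growth factor genes 8 were called higher and 10 lower, beside 21.5% and 8.78% over all tested genes. The lymphotoxins were higher: *Ltb* had 499.9, 681 and 660.5 against 8.93, 5.47 and 4.51 (6.43 ± 0.26, limma adjusted p = 1.96e-06) and *Lta* 37.9, 32.3 and 32.6 against 0.161, 0.124 and 0.0717. *Il12a*, the p35 chain shared by IL-12 and IL-35, had 41.8, 41.6 and 39.8 against 0.0979, 0.0403 and 0.0874, and *Ebi3*, the other chain of IL-35, 24.0, 25.6 and 13.2 against 1.97, 4.84 and 7.21. *Tnf* was also higher, with 10.5, 11.1 and 10.1 against 0.102, 2.19 and 1.84. The lower genes included *Tgfb2* (-6.05), *Igf1* (-3.52) and *Pdgfa* (-2.30), growth factors, and *Tnfsf13b* (-1.84) and *Tnfsf13* (-2.92), the ligands BAFF and APRIL of the receptors named above. The call of *Tnfsf13* was lost without any 1 of 5 libraries, PM replicate 1 being the exception. With edgeR *Tnf* and *Ebi3* were not called.

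Receptors for homing went in both directions, with 8 of 19 called higher and 6 lower, beside 21.5% and 8.78% over all tested genes. *Ccr7*, which leads lymphocytes into lymph nodes, had 68.8, 109 and 70.2 against 0.645, 0.312 and 0.326 (log2 difference 5.85 ± 0.25, limma adjusted p = 2.59e-06), and *Cxcr5*, the receptor for CXCL13, 81.6, 90.1 and 52.5 against 10.1, 2.99 and 2.72. *Cmklr1*, the receptor for chemerin, was lower, with 0.190, 0.0897 and 0.0583 against 88.0, 78.1 and 45.4 (-5.95), as was *Ccr1* (7.04, 10.6 and 6.72 against 179, 129 and 168). Of 20 chemokine ligands 9 were called lower and 1 higher, against the same shares, or 4 higher without CD11b+ replicate 3. Besides *Cxcl13* these included *Pf4*, platelet factor 4 (5.48, 4.08 and 4.92 against 2983, 3290.0 and 2257), *Ccl6* (7.40, 5.45 and 2.99 against 815, 1405 and 1578) and *Ccl24* (0.158, 0.236 and 0.329 against 177, 224 and 226). *Ccl8* was the ligand called higher, at 2.73, 2.54 and 2.83 in the CD11b+ libraries and with no read in PMs, which makes it at least 31.0-fold higher when 3 reads are allowed over the PM group, a limit that covers counting error only.

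For genes of general metabolism the counts of called genes moved with the scaling. Of 36 cytosolic ribosomal protein genes 2 were called higher as deposited, a share below the 21.5% over all tested genes, and after median-ratio scaling these were not called and 2 others were lower, with medians of 0.00 and -0.50. CD11b+ replicate 3 was the highest CD11b+ library for 34 of the 36, and without it 5 were called lower. Of 25 nuclear oxidative phosphorylation genes 7 were called higher and 2 lower, beside 21.5% and 8.78% over all tested genes, and with median-ratio scaling 1 and 7, beside 13.4% and 11.8%. With edgeR the counts were 1 and 8. By limma the higher count was 3 without CD11b+ replicate 1 and 2 without replicate 2, and the lower count 4 without PM replicate 3. *Ndufa1*, a complex I subunit, was lower with both scalings, with 236, 241 and 351 against 1185, 878 and 760.3 (-1.77, limma adjusted p = 0.00230), and *Ndufs1*, another, which overlaps the more abundant *Eef1b2* (means of 117.7 and 116 FPKM), was higher with both, with 19.98, 17.6 and 14.6 against 4.54, 6.21 and 7.52 (1.39, adjusted p = 0.00374). Of 20 glycolytic genes 2 were called higher, the glucose transporters *Slc2a1* (1.78) and *Slc2a3* (2.36), and 4 lower, which were *Ldhb* (0, 0.268 and 0.0361 against 16.97, 20.5 and 17.4), *Hk2*, *Hk3* and *Aldoa*. The higher share was thus below the 21.5% over all tested genes, and the lower share stood beside 8.78%. With median-ratio scaling the lower count was 9, beside 11.8% over all tested genes, and it was 7 without PM replicate 1, while the higher count was 4 without CD11b+ replicate 3.

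**Figure D5:**
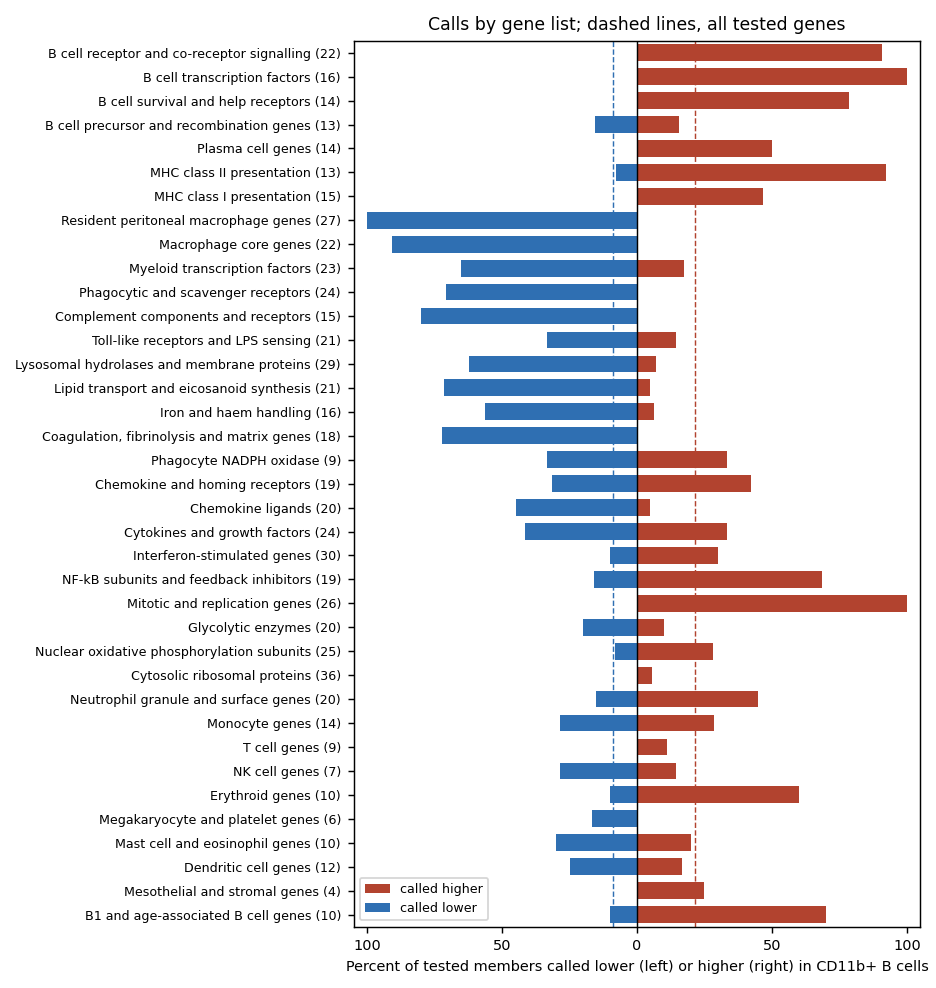
Percent of the tested members of 37 gene lists (number of tested members in brackets) called higher (red, to the right) or lower (blue, to the left) in CD11b+ B cells than in PMs. Dashed lines mark the shares over all tested genes, 21.5% higher and 8.78% lower. The lists of B cell receptor genes, B cell transcription factors, B cell survival receptors, MHC class II and mitotic genes extend far past the first. The macrophage, complement and lipid lists extend far past the second.

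Neutrophil genes were read in the CD11b+ libraries at levels that differed between the libraries. Of 20 neutrophil granule and surface genes 9 were called higher and 3 lower, beside 21.5% and 8.78% over all tested genes, and without CD11b+ replicate 3, 15 were higher. The summed FPKM of the list was 684, 1629 and 239 in CD11b+ replicates 1, 2 and 3, against 497 to 617 in PMs and 9.32 to 15.96 in CD11b- B cells. Replicate 2 was the highest CD11b+ library for 16 of the 20 genes and replicate 3 the lowest for 18. *S100a9*, a calcium-binding protein of granulocytes and monocytes, had 221, 545 and 74.5 against 0.744, 0.721 and 7.02 (log2 difference 6.18 ± 0.80, limma adjusted p = 0.000876), *Ngp*, a granule protein, 135, 340.0 and 24.1 against 0.727, 0.140 and 0.203 (6.30), and *Camp*, cathelicidin, 31.8, 103 and 7.82 against 0.513, 0.0903 and 0.523 (4.52). *Ly6g*, which carries the Gr-1 epitope used for the removal of neutrophils before sorting, had 1.34, 2.51 and 1.96 in the CD11b+ libraries and no read in PMs. The PM sum came largely from the 3 genes called lower: *Padi4*, an enzyme that converts arginine to citrulline (0.9999, 1.49 and 0.469 against 349.5, 241 and 276), the protease *Prtn3* (5.19, 4.10 and 0.884 against 177, 215 and 121) and the G-CSF receptor *Csf3r* (1.81, 2.28 and 0.0550 against 75.9, 50.1 and 62.6). Neutrophil genes were thus among those that moved with the CD11b+ group, and their part in the other differences was not tested.

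Of 14 monocyte genes 4 were called higher and 4 lower, beside 21.5% and 8.78% over all tested genes. Of the higher genes, *Ms4a4c* (133, 100.3 and 109 against 0.349, 0.215 and 1.56), *Plac8* (120.1, 117 and 149 against 6.97, 5.63 and 4.67) and *Ly6c2* (28.6, 26.4 and 46.1 against 0.142, 0.0750 and 0.163) were also read in CD11b- B cells, with means of 95.2, 90.0 and 15.7. *Ccr2*, the receptor that brings monocytes from the BM, had 0.549, 0.192 and 0.0126 against 15.6, 16.2 and 13.2, *F13a1*, the A chain of coagulation factor XIII, 1.27, 0.0963 and 0.0589 against 34.1, 26.0 and 23.5, and *Ifitm6* 11.4, 17.8 and 1.88 against 307, 215 and 186. The 3 lower monocyte genes named here and *Fn1* were thus higher in the PM libraries, and which cells of the PM sort held them was not tested. Of 9 tested T cell genes 1 was called higher, against the same shares. This was *Lck*, a kinase also read in CD11b- B cells (mean 13.9), with 12.3, 13.2 and 19.4 against 0.265, 0.386 and 1.24. *Cd3d*, *Cd3e* and *Cd3g* had at most 0.833 in the CD11b+ libraries and 1.13 in the PM libraries. Of 7 natural killer cell genes 1 was called higher and 2 lower, again against the same shares. The receptors *Klrd1* (0, 0.0895 and 0 against 1.04, 4.89 and 1.199) and *Klrk1* (0, 0.0585 and 0.190 against 1.05, 2.32 and 0.648) were called lower and perforin, *Prf1* (2.35, 2.20 and 0.593 against 0.0430, 0 and 0), higher. The first 2 calls were lost without any 1 CD11b+ library and the third without CD11b+ replicate 1 or 2 or PM replicate 2 or 3.

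The ranking by log2 difference left out the segments and symbols given above and kept a set number of genes in each direction. It does not cover the ends of the comparison in full, since 74 genes were higher and 77 lower by more than 64-fold. Few of the ranked genes were not named in a paragraph above. Upwards they were *Scd1*, a stearoyl-CoA desaturase (191, 180.2 and 173 against 1.18, 0.966 and 1.54), *Ly6d*, a surface protein of early and mature B cells (2576, 2891 and 2938 against 51.1, 25.2 and 26.0), *Srpk3*, a kinase of splicing factors (128, 141 and 121 against 0.997, 0.197 and 0.445), *Fcmr*, the receptor for IgM (294, 419.5 and 314 against 2.40, 1.83 and 4.17), and *Fcrl1*, an Fc receptor-like protein of B cells (134, 134 and 141 against 0.858, 0.337 and 0.612). Downwards they were *Apoc1*, an apolipoprotein (0.869, 0.257 and 0.801 against 632, 536 and 298), *Fcna*, a ficolin that starts the lectin pathway of complement (1.73, 2.31 and 1.69 against 887, 1249 and 1247), *Ecm1*, an extracellular matrix protein (4.52, 3.11 and 3.50 against 1542, 2108 and 1715), and *Emilin2*, another (1.1998, 1.15 and 0.546 against 492, 529.8 and 542). The 10 most abundant named genes of each group did not share a member. Those of CD11b+ B cells were *Igkc*, *Cd74*, *Ighm*, *Tmsb4x*, *Iglc2*, *B2m*, *H2-D1*, *H2-Ab1*, *Ly6d* and *Iglc3*. Those of PMs included *Lyz2*, *Apoe*, *Ftl1*, the ferritin light chain (623, 748 and 723 against 3119, 5750.1 and 4665), *Ifitm3*, an interferon-induced membrane protein (51.6, 55.7 and 28.7 against 2817, 4715 and 2594), and *Wfdc17* (29.6, 34.3 and 43.0 against 5377, 7765 and 7067). Of 10 genes high in both groups with the interval of the log2 difference within -1 and 1, 8 encoded ribosomal proteins, and the others were *Sh3bgrl3* (732, 834 and 842 against 881, 1389.8 and 797), which edgeR called lower, and the chaperone *Hsp90ab1* (585, 631 and 403 against 433, 626 and 521).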

How the data were processed

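RNA was sequenced from 3 libraries each of CD11b+ B cells, CD11b- B cells and PMs, made from amplified cDNA (SMART-seq HT). The authors trimmed reads with Trim Galore 0.4.4, Trimmomatic 0.36 and cutadapt 1.16, aligned them with STAR 2.7.2b and counted them with featureCounts 1.6.1, per the labels and the methods, and deposited FPKM per gene. For strand use in counting, the setting was not given in the sources used here. The labels name GRCm38 and GRCm39, and coordinates printed here come from GENCODE M21 on GRCm38, matched by Ensembl ID for 52046 of 55322 genes. Reads recovered from the deposited FPKM and exon lengths were whole for all values within 0.05 read. The authors also deposited a signal table for selected genes, in which reads were divided by size factors from DESeq2 1.20.0. It served here only to check the whole reads, and its cluster column (1 column) was left out.

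Genes whose FPKM averaged at least 0.05 over the 6 libraries were tested with limma 3.58.1 (R 4.3.3) with trend on log2(FPKM + 1), with Benjamini-Hochberg adjustment over all 22102 tested genes. Alternatives were edgeR 4.0.16 and DESeq2 1.42.0 on the recovered reads, other pseudocounts, filters and scalings, a replicate block, all 9 libraries in one fit, and each library left out. Floors of 3 reads over a group cover counting error only, since reads carried no molecular identifiers.

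Samples were grouped by their labels. The members and the 37 gene lists (655 genes) were chosen with earlier results of these data known. Genes were named as markers and sort genes, and as up to 4 called members of each list in each direction. Further genes were the 15 largest log2 differences in each direction with a mean FPKM of at least 10, and the 10 most abundant in each group or highest in both. These rankings by difference and by abundance left out immunoglobulin and T cell receptor variable, joining and diversity segments and symbols that start with Gm or end in Rik. Any other gene named, and the promoters shown, were chosen after their values were seen. Of 220 genes named and searched for it, 60 overlap exons of another annotated gene, so their reads are uncertain to that extent, and for *Bst1*, *Cd74*, *Cebpb*, *Dusp1*, *Iglc3*, *Ndufs1*, *Nfkb2*, *Pax5*, *Prg4*, *Sh3bgrl3*, *Tap1*, *Tnfsf13* and *Vpreb1* the other gene had a mean of at least 10 FPKM in either group. Some genes are not reported here, and some of the list counts include them.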

Additional observations from a re-analysis of the deposited data

How the results depend on the processing

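The counts of called genes moved with the scaling and the tool. The 4760 higher genes became 2927 with median-ratio scaling, 2706 with quantile normalization, 2850 with edgeR on whole reads, 3135 with edgeR without a filter on low counts and 1279 when a fold of more than 4 was also asked. The 1940 lower genes became 3418 with DESeq2 and 861 with a fold of more than 4. DESeq2 called 3576 genes higher, and the other pseudocounts, filters and fits left both counts within 1.5 times. Leaving out 1 library gave 3152 to 4919 higher and 1348 to 2026 lower genes, with the lowest higher count without CD11b+ replicate 2. The causes were not tested. Of the genes described that were called or given with a log2 difference, *Il10* was the one whose direction turned, to -1.08 with DESeq2, -1.07 with edgeR, -1.01 with edgeR without a filter, -0.26 without PM replicate 2 and -0.28 without PM replicate 3. It was 1.31 and called higher without PM replicate 1, 1.72 with a pseudocount of 0.1 and 3.33 with 0.01. Of genes given by their values and not called, *B2m* went from 0.25 to -0.25, *Hsp90ab1* from 0.02 to -0.48, *Lyn* from 0.42 to -0.08 and *Rela* from 0.27 to -0.22 with median-ratio scaling.

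The libraries carry replicate numbers that recur in both groups, but the groups came from different mice, and same-numbered libraries did not deviate together (correlations of the deviations from the group means of -0.0960, 0.0937 and -0.140 over 12525 genes). With the replicate number as a block, 4111 genes were called higher and 1743 lower, and of these genes *Cyba* and *Cd5* were no longer called.

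With edgeR, Toll-like receptor genes went from 3 to 1 higher and from 7 to 11 lower, interferon-stimulated genes from 9 to 5 and from 3 to 7, cytokines from 8 to 5 higher, glycolytic genes from 4 to 10 lower, ribosomal protein genes from 2 to 0 higher and from 0 to 5 lower, and class I and plasma cell genes from 0 to 2 lower each. Leaving out 1 library moved the counts of 7 lists by at least 2 genes and by over 1.5 times. Toll-like receptor genes went from 3 to 1 higher without PM replicate 2 or 3, and from 7 to 4 lower without CD11b+ replicate 1 or 2. Oxidative phosphorylation genes went from 7 to 3 and 2 higher without CD11b+ replicates 1 and 2, and from 2 to 4 lower without PM replicate 3. Without CD11b+ replicate 3, neutrophil genes went from 9 to 15, glycolytic genes from 2 to 4 and chemokine ligands from 1 to 4 higher, and ribosomal protein genes from 0 to 5 lower. The 2 natural killer cell genes called lower were not called without any 1 CD11b+ library. Glycolytic genes went from 4 to 7 lower without PM replicate 1. The lists of B cell receptor genes, B lineage factors, MHC class II, mitotic, resident PM, core macrophage, phagocytic and complement genes kept within that limit in their leading direction.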

Other observations

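Genes of other B cell subsets were read in the CD11b+ libraries and differed from PMs in both directions. Of 10 genes used to mark B1 cells or age-associated B cells 7 were called higher and 1 lower by limma, beside 21.5% and 8.78% over all tested genes. *Zbtb32*, a transcriptional repressor, had an FPKM of 55.7, 32.4 and 19.9 against 0.330, 3.34 and 3.30 (log2 difference 3.55 ± 0.53, limma adjusted p = 0.00186), with a mean of 3.44 in CD11b- B cells. *Fcrl5*, an Fc receptor-like protein, had 21.1, 14.99 and 13.6 against 1.74, 0.226 and 0.0570 and a CD11b- mean of 8.03. *Tbx21*, the gene of T-bet, had 3.28, 3.46 and 3.24 against 0, 0 and 0.0199 and a CD11b- mean of 0.871. *Cd9*, a tetraspanin of many cells, was lower, with 14.1, 11.6 and 7.09 against 328, 407 and 387, and *Cd5* was low in the CD11b+ libraries at 0.511, 0.504 and 0.576, with a call that was lost without PM replicate 2 or 3. The CD11b- means were not compared by a test here.

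Red cell genes were low but separated the groups. Of 10 tested erythroid genes 6 were called higher by limma, beside 21.5% over all tested genes. *Hba-a1*, an alpha globin gene, had 19.5, 21.2 and 12.2 in the CD11b+ libraries and no read in PMs, at least 321-fold higher when 3 reads are allowed over the PM group, although its reads may be split with those of *Hba-a2*. *Hbb-bs*, a beta globin gene, had 18.2, 16.2 and 15.1 against 0, 0.0446 and 0.0645, with a mean of 4.15 in CD11b- B cells, and *Epor*, the erythropoietin receptor, was the lower gene with 0.0171, 0.0768 and 0.0285 against 1.81, 1.33 and 0.673, a call that was lost without CD11b+ replicate 1 or 2. The summed FPKM of the list was 43.0 to 52.3 in CD11b+ B cells and 1.35 to 1.97 in PMs. Of 10 mast cell and eosinophil genes *Il5ra* (13.7, 12.1 and 11.1 against 0.326, 0.115 and 0.0693) and *Prg2* (3.94, 3.602 and 13.7, with no read in PMs) were called higher, and *Hdc* (0.890, 1.31 and 0.120 against 14.2, 11.1 and 7.38), *Tpsb2* (0, 0 and 0.0178 against 1.25, 4.08 and 6.25) and *Cma1* (0, 0 and 0.0260 against 0.458, 6.66 and 7.73) lower, of which *Cma1* was called only with all libraries or without PM replicate 1. Of 12 dendritic cell genes *Cd209a* (0.129, 0.459 and 0.161 against 65.5, 58.3 and 43.2), *Batf3* (0.0426, 0.526 and 0.320 against 13.5, 18.5 and 11.7) and *Bst2* (51.5, 60.0 and 78.0 against 159, 195 and 124) were called lower and *Tcf4* and *Klk1* higher. The share called higher in both lists, 2 genes in each, was near the 21.5% over all tested genes. *Pf4* was the called gene among 6 tested platelet genes, and *Pecam1*, an adhesion molecule of endothelium and leukocytes (37.5, 39.6 and 33.4 against 0.339, 0.181 and 0.899), the called gene among 4 tested mesothelial and stromal genes.

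Of 2927 tested long noncoding genes 463 (15.8%) were called higher and 129 (4.41%) lower, beside 21.5% and 8.78% over all tested genes. A mean FPKM of at least 10 with no read in the other group was found for 24 genes in CD11b+ B cells and for 5 in PMs.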
